A study of Mus musculus with 51 samples.

Results

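The mitochondrial ribosomal protein genes were followed here in single mouse oocytes and preimplantation embryos. They were taken as every gene whose symbol begins with Mrpl or Mrps and a digit, on array probe sets that name exactly 1 gene. This gave 76 of the 18193 genes measured, 47 with large-subunit symbols (Mrpl) and 29 with small-subunit symbols (Mrps). Where a gene had several probe sets, as 42 of the 76 did, the one with the largest SD over the 51 arrays stood for it. The genes were chosen by name alone, but the SD includes differences between groups and so favours the probe set that changed most. All 76 matched a protein-coding gene of the same symbol in the RefSeq annotation of GRCm38.p6, and they lie on 17 chromosomes, with 11 on chromosome 11 and 0 on the X chromosome. Mrpl30 and Mrpl53 were represented only by probe sets that name several genes and were left out.

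The embryos were of 2 kinds, clones and embryos made by in vitro fertilisation (IVF), with oocytes at metaphase II (MII) as the starting point. Clones had the nucleus of a B6CBF1 Sertoli cell (which nurses germ cells in the testis) in a B6D2F1 recipient oocyte, and 5 were measured at each stage. IVF embryos came from B6D2F1 gametes, and 3 were measured at each stage, beside 3 B6D2F1 MII oocytes. The stages were the 1-cell, 2-cell, 4-cell and 8-cell embryo, the morula and the blastocyst, collected 16, 32, 48, 62, 72 and 84 h after sperm addition or oocyte activation, and all embryos grew in KSOM medium. Each array held amplified RNA of 1 oocyte or embryo, so whether a blastocyst had fewer cells or less RNA per cell cannot be told apart, and p-values measure the spread between single embryos. The series asks how expression in clones differs from that in fertilised embryos through preimplantation development.

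The mitochondrial ribosome makes the few proteins that mitochondrial DNA encodes, all of them core parts of the respiratory chain and ATP synthase. Its RNA comes from the mitochondrial genome, whereas every protein in it is encoded in the nucleus, made in the cytosol and imported. Many of these proteins have a bacterial counterpart and the others occur only in mitochondria. Oocytes carry a large store of mitochondria, and mitochondrial DNA is not replicated to any large extent until around the blastocyst stage. The symbols do not always match the place of the protein, since mammalian structures put MRPS30 and MRPS18A in the large subunit, and MRPS36 was later assigned to the 2-oxoglutarate dehydrogenase complex.

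Promoter sequences are shown for 3 of the genes with the largest rise over development, because they differ in the motifs they hold. RefSeq promoter windows (GRCm38.p6) of 300 bases, from 250 before to 50 after a gene start, were at hand for 67 of the 76 genes. Searched on both strands, the ETS core CCGGAAG, a sequence bound by GABPA, occurred in the windows of 25 of the 67 genes (37.3%), and in those of 12.9% of all protein-coding genes. The NRF1 core GCATGCG occurred in 8 genes (11.9%, against 5.0%) and the YY1 core ATGGCGG in 12 (17.9%, against 6.1%). At least 1 of the 3 motifs was found in 36 of the 67 (53.7%), compared with 21.1% of protein-coding genes. NRF1, GABPA and YY1 are transcription factors of nuclear genes for mitochondrial proteins. A match describes these letters only. Shown are the 250 bases before the start, 5′ to 3′ on the gene's own strand, with matches in capitals. Mrpl17 (chr7:105811088-105811337, minus strand) held an ETS core 237 bases before the start and NRF1 cores on both strands, at 10 and 9 bases, which overlap in 1 palindromic stretch. Mrpl43 (chr19:45006443-45006692, minus strand) held the ETS core at 56 and 12 bases before the start, while Mrpl41 (chr2:24975099-24975348, minus strand) held none of the 3 motifs.
Mrpl17: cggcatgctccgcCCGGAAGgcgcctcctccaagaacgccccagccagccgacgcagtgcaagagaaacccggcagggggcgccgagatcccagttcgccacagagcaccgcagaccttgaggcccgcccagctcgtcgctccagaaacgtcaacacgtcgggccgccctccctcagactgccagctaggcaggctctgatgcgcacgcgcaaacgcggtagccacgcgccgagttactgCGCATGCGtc
Mrpl43: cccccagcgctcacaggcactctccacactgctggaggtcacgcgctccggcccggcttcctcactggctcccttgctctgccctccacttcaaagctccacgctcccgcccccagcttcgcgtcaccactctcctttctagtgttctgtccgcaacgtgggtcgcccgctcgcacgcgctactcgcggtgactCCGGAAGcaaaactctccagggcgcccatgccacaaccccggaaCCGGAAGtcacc
Mrpl41: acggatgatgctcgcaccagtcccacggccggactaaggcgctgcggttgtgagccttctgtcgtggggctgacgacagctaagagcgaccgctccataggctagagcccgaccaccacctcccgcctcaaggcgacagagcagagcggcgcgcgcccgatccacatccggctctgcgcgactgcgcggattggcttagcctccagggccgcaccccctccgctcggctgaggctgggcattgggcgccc

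Between the MII oocyte and the blastocyst, most mitochondrial ribosomal protein genes rose, in IVF embryos and in clones. In IVF blastocysts 63 genes were higher and 6 lower than in MII oocytes, which is 90.8% of the 76, where 65.0% of all genes were called (limma, Benjamini-Hochberg adjustment over all genes, threshold 0.05). By direction, 25.9% of all genes were called higher and 39.0% lower. The median difference of the 76 genes was 3.20 on the log2 scale (9.2-fold), beside -0.08 for all genes. Of the 76, 33 stood at least 4 log2 units higher, but the share of all genes that did is not given here, so the 33 cannot be set beside it. In clone blastocysts 61 genes were higher and 4 lower than in the same MII oocytes (85.5%, where 62.1% of all genes were called, 26.5% higher and 35.7% lower), with a median of 3.11 (8.6-fold). The IVF and clone comparisons share the 3 oocytes, so the 60 genes higher in both are a count and not independent evidence. Large-subunit genes had medians of 3.97 in IVF embryos and 3.78 in clones, and small-subunit genes 2.87 and 2.34. Markers of embryo and oocyte moved with these genes over the same interval. The mean level of the 6 trophectoderm markers, all measured, ran from 5.55 to 5.75 in IVF blastocysts and from 5.44 to 5.91 in clone blastocysts, against -1.52 to -1.0 in MII oocytes. That of 5 of 6 oocyte markers, the measured ones, ran from -2.98 to -2.88 in IVF blastocysts and -3.03 to -2.78 in clone blastocysts, against 7.47 to 7.63 in MII oocytes, and the part of either in the rise was not tested. The log2 difference between 3′ and 5′ control probe sets ran from -0.37 to 0.08 in MII oocytes. It ran from -2.36 to -1.63 in IVF blastocysts and from -1.52 to -0.72 in clone blastocysts, and its part in the rise was not tested.

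**Figure D1:**
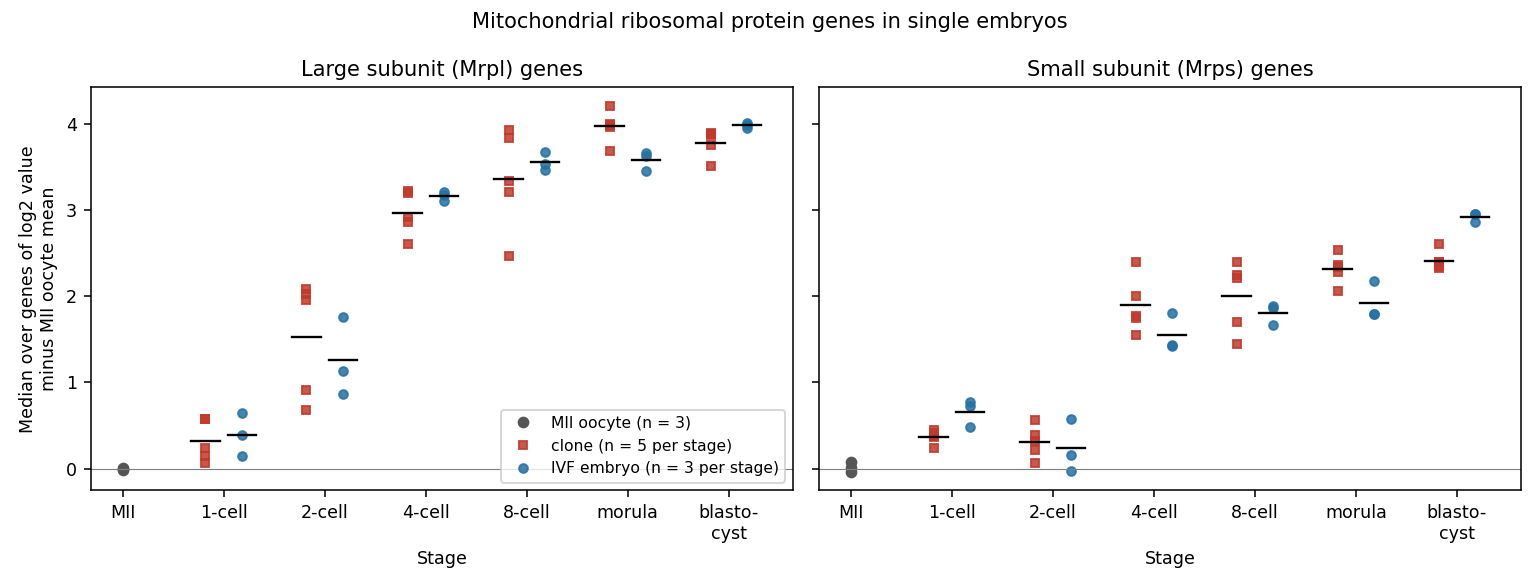
Median log2 difference from the MII mean (vertical axis) in each of the 51 oocytes and embryos, by stage (horizontal axis). Large-subunit and small-subunit genes are in separate panels, with clones and IVF embryos as separate points. Large-subunit medians lie between 0.07 and 0.64 at the 1-cell stage and between 3.51 and 4.01 in blastocysts. Small-subunit medians lie between 0.24 and 0.77 at the 1-cell stage and between 2.33 and 2.95 in blastocysts.

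The largest rises were those of large-subunit genes. Mrpl17, which has a bacterial counterpart, read 3.04, 2.96 and 3.31 in the IVF blastocysts and 3.23, 2.84, 2.84, 3.30 and 2.76 in the clone blastocysts, against -5.81, -5.80 and -4.47 in the MII oocytes (values are log2 differences from a baseline of the probe set). The groups did not overlap. Its difference was 8.46 ± 0.38 (SE) in IVF embryos (limma adjusted p = 3.25e-11) and 8.35 in clones. Mrpl43, which is specific to the mitochondrial ribosome, read 0.21, 0.34 and 0.10 in the IVF blastocysts and 0.35, 0.25, 0.00, 0.19 and -0.26 in the clone blastocysts, against -8.01, -8.14 and -7.81 in the MII oocytes. Here too the groups were far apart, with differences of 8.20 ± 0.36 and 8.09.

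Mrpl41, another protein specific to the mitochondrial ribosome, was higher by 8.18 ± 0.45 in IVF blastocysts and by 8.02 in clone blastocysts. Mrpl15, with a bacterial counterpart, was higher by 8.13 ± 0.47 and 7.62. Mrpl42, a mitochondria-specific large-subunit protein, was higher by 7.58 ± 0.35 in IVF blastocysts and by 7.33 in clone blastocysts. Its values in the MII oocytes (-4.87, -4.27 and -4.10) barely differed from those of the IVF 1-cell embryos (-4.19, -4.26 and -4.27). Detection calls were not used here, so whether such crowded low values lay above background was not tested. Mrpl12, which forms the stalk of the large subunit and also binds mitochondrial RNA polymerase, rose by 7.03 in IVF embryos and 6.64 in clones. The 3 paralogues of the Mrps18 family all rose, Mrps18a by 5.06 and 4.54, Mrps18b by 7.33 and 7.55, and Mrps18c by 6.27 and 5.72 in IVF embryos and clones.

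**Figure D2:**
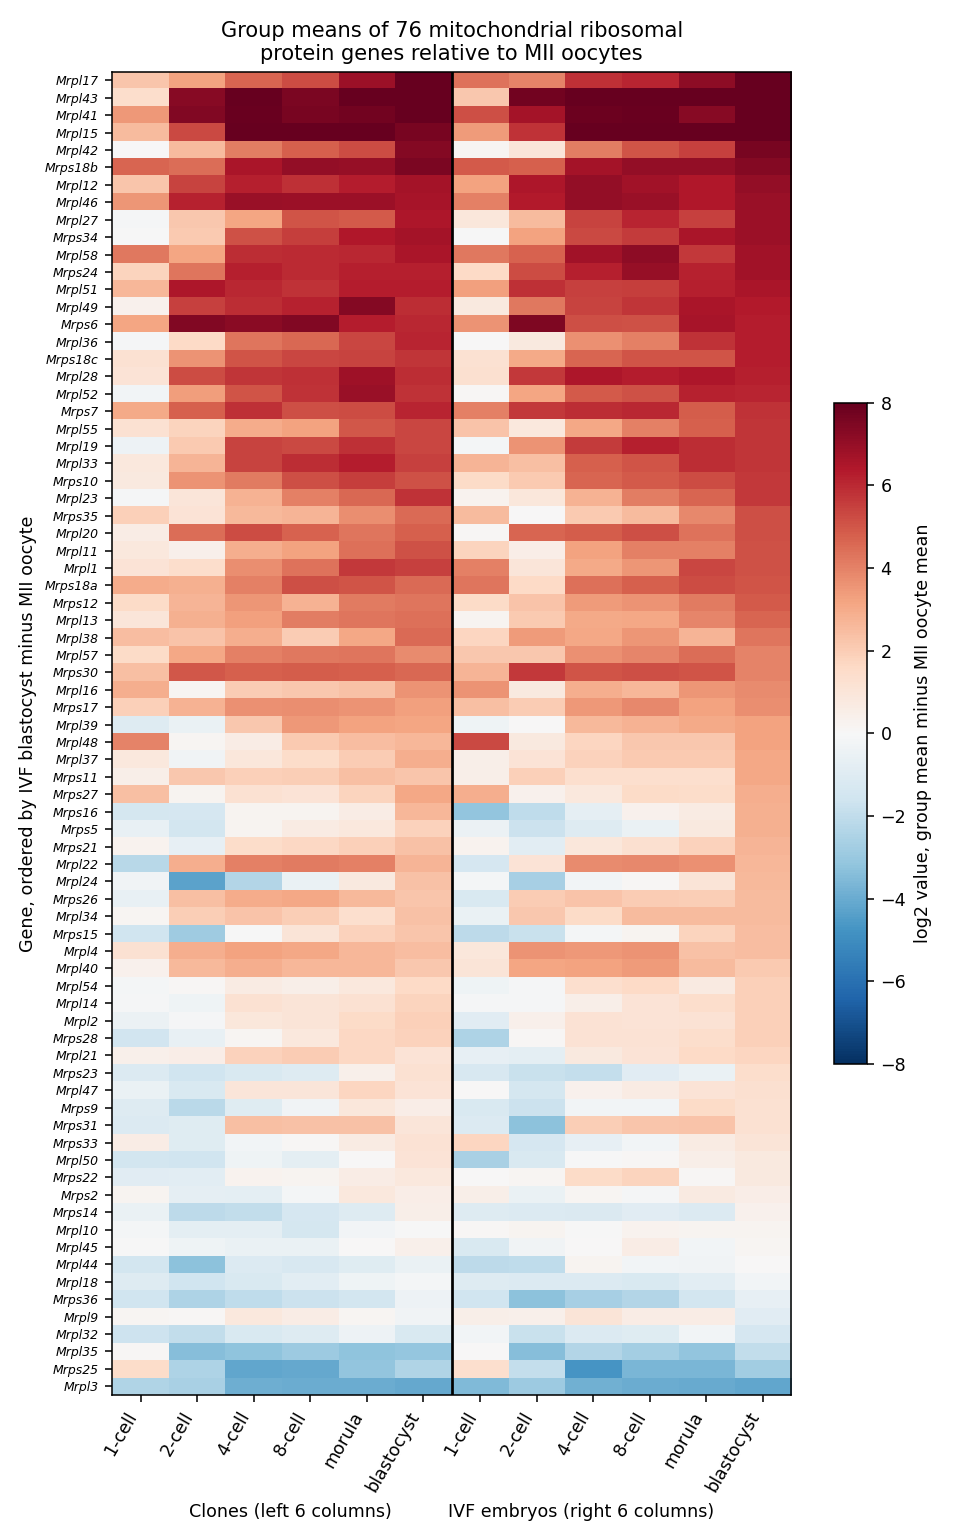
Mean log2 difference from MII of each of the 76 genes (vertical axis) in each stage of IVF embryos and clones (horizontal axis), as colour. Above MII stand 50 genes in IVF and 45 in clone 1-cell embryos, and 69 and 67 in IVF and clone blastocysts. Mrpl3 is among the few that stand below MII in blastocysts.

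The falls were fewer and depended more on the probe set. Mrpl3, with a bacterial counterpart, read -0.19, -0.30 and -0.08 in IVF blastocysts and -0.08, -0.08, -0.22, -0.08 and -0.06 in clone blastocysts, against 4.18, 3.71 and 4.07 in MII oocytes. The oocytes stood apart from every blastocyst, and the difference was -4.17 ± 0.38 in IVF embryos and -4.09 in clones. The other 3 probe sets of Mrpl3 differed by -0.57 to 0.02 between IVF blastocysts and oocytes. Mrps25 (-2.81 ± 0.74 in IVF embryos, -2.43 in clones) and Mrpl35 (-1.95 ± 0.48 and -3.08) also fell, but a second probe set of Mrps25 was higher by 2.53 in IVF blastocysts and a second one of Mrpl35 by 1.53. With the mean of all probe sets of a gene, neither passed the threshold in IVF embryos (limma adjusted p = 0.794 for Mrps25 and 0.764 for Mrpl35) or in clones (0.832 and 0.0659). After a second quantile normalization, which gives every array the same spread of centred values, Mrps25 did not pass in either kind (0.207 in IVF embryos and 0.361 in clones), nor did Mrpl35 in IVF embryos (0.666). Mrpl32, whose processing by the m-AAA protease precedes its entry into the ribosome, has 1 probe set and was lower in IVF blastocysts (-1.34 ± 0.29) and in clones (-1.22 ± 0.32), where the call was lost after that normalization (limma adjusted p = 0.0695). Mrpl9 (-0.91 ± 0.26) and Mrps36 (-0.67 ± 0.28, limma adjusted p = 0.0474) fell in IVF blastocysts, and in clones Mrpl9 differed by -0.29 and Mrps36 by -0.39. Mrpl9 was not called in IVF embryos with the mean of its probe sets (limma adjusted p = 0.11).

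Over all 156 probe sets of the 76 genes, 121 were higher in IVF blastocysts than in MII oocytes, with a median of 1.89. Of the 80 probe sets not chosen, 49 had the sign of the chosen one, and 18 of the 42 genes with several probe sets had all of them on 1 side. For Mrpl17 the other probe sets differed by -0.06 and -0.11, and for Mrpl41 by 7.04 and -0.13. With the mean of all probe sets of a gene, the median difference of the 76 genes was 2.62 in IVF and 2.42 in clone blastocysts.

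In IVF embryos most calls fell on the first 3 steps. Against MII oocytes, 30 of the 76 genes were higher and 15 lower in IVF 1-cell embryos (59.2%, where 30.6% of all genes were called, 14.3% higher and 16.3% lower). From the 1-cell to the 2-cell stage 30 rose and 17 fell (61.8%, where 35.9% were called, 17.2% higher and 18.7% lower), and from the 2-cell to the 4-cell stage 37 rose and 3 fell (52.6%, where 23.8% were called, 10.5% higher and 13.3% lower). No gene of the 76 was called from the 4-cell to the 8-cell stage (limma, where 1.98% of all genes were called, 1.23% higher and 0.759% lower). An unadjusted p under 0.05 was found for 2519 of all 18193 genes and for 5 of the 76. From the 8-cell stage to the morula 8 rose and 6 fell (18.4%, where 17.2% were called, 7.09% higher and 10.1% lower), and from the morula to the blastocyst 15 rose and 4 fell (25.0%, where 22.6% were called, 12.6% higher and 10.1% lower). The medians of the 6 steps were 0.46, 0.52, 1.15, 0.27, 0.13 and 0.51, so the largest was that from the 2-cell to the 4-cell stage. The direction of the second step, and the size of others, depended on the scaling. After the second quantile normalization 20 genes were higher and 4 lower at the first step (median 0.18), 12 and 24 at the second (median -0.32, a change of sign) and 42 and 2 at the third, and the later steps had 1 and 0, 24 and 9 (median 0.50), and 8 and 7 (median 0.19). The shares of all genes called after that scaling are not given here, so these counts cannot be set beside them. The single largest rise of a gene fell on the first step for 22 genes (28.9%) and on the second for 22 (28.9%). Of all genes, 16.9% and 20.0% had theirs there. It fell on the third step for 18 genes (23.7%), below the 28.8% of all genes. The 3 later steps held it for 2, 4 and 8 genes (2.6%, 5.3% and 10.5%), against 7.4%, 13.1% and 13.9% of all genes. The blastocyst held the highest IVF mean of 38 genes, where 16.2% of all genes were highest there, and the MII oocyte held the lowest mean of 42, where 14.4% of all genes were lowest there.

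Genes of the first step included members that did not keep their gain. Mrpl48, a mitochondria-specific large-subunit protein, read 2.94, 3.30 and 2.72 in IVF 1-cell embryos, against -2.92, -1.95 and -1.96 in MII oocytes. It then stood at -0.87, -1.35 and -2.24 in IVF 2-cell embryos, and neither pair of neighbouring stages overlapped. Its differences were 5.26 ± 0.40 for the first step and -4.47 ± 0.40 for the second. Mrps18a moved in the same directions, by 4.28 ± 0.46 and -2.65 ± 0.46, and Mrpl1, with a bacterial counterpart, moved by 4.05 ± 0.34 and -3.06 ± 0.34. Array quality also differed between these stages. The mean of the hybridisation controls, in log2 units, lay between 0.53 and 0.79 in IVF 1-cell embryos. It lay between -0.8 and -0.47 in MII oocytes and between -0.73 and -0.23 in IVF 2-cell embryos, and its part in either step was not tested. Mrpl41 (5.13 ± 0.45) and Mrps18b (4.90 ± 0.40) also led the first step. Mrpl3 (-3.51 ± 0.38), Mrps16 (-3.13 ± 0.55) and Mrpl50 (-2.62 ± 0.36) had its largest falls. After the second quantile normalization Mrps16 (limma adjusted p = 0.122) and Mrpl50 (0.0571) were not called. Mrps16 has a bacterial counterpart and Mrpl50 is specific to mitochondria.

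**Figure D3:**
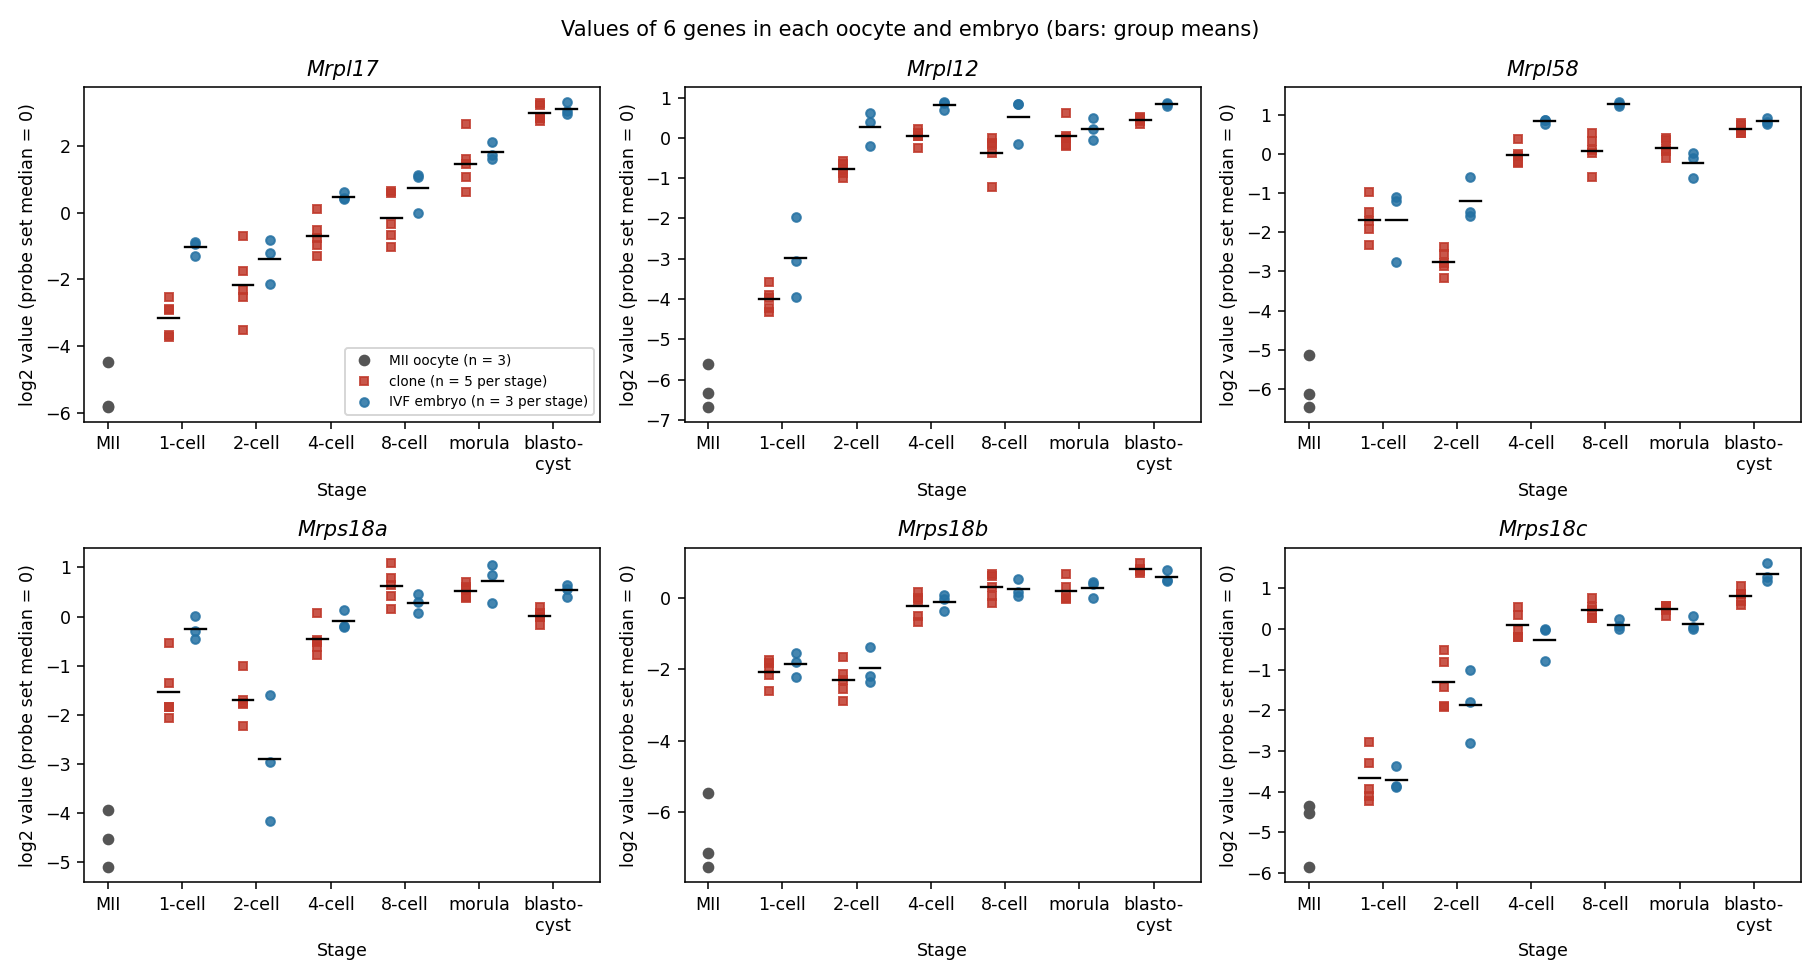
Log2 value of selected mitochondrial ribosomal protein genes in every embryo, by stage from the MII oocyte to the blastocyst (horizontal axis), with clones and IVF embryos as separate points. Mrpl17 stands at 2.76 or more in every blastocyst, against -5.81 to -4.47 in MII oocytes.

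The second step, which spans the main activation of the mouse embryonic genome, brought the largest rise of Mrpl43. It read -0.78, 0.25 and -0.25 in IVF 2-cell embryos, against -4.80, -6.58 and -6.21 in IVF 1-cell embryos, with no overlap and a difference of 5.60 ± 0.36 (limma adjusted p = 4.5e-09). Mrpl20 (4.57 ± 0.51) and Mrpl28 (4.38 ± 0.31), both with bacterial counterparts, followed, and the falls beside that of Mrpl48 were those of Mrpl35 (-3.45 ± 0.48) and Mrps25 (-3.22 ± 0.74). The call of Mrps25 at this step was lost after the second quantile normalization (limma adjusted p = 0.296). In the third step Mrps31, a mitochondria-specific small-subunit protein, read 0.71, 1.12 and 0.24 in IVF 4-cell embryos, against -4.97, -7.05 and -1.59 in IVF 2-cell embryos. The groups did not overlap, although the 2-cell embryos lay far from each other, and the difference was 5.23 ± 0.87. Mrpl42 (3.18 ± 0.35) and Mrpl27 (2.93 ± 0.55), the counterpart of a bacterial protein, also rose. Mrps25 (-2.86 ± 0.74), Mrps6 (-2.28 ± 0.60) and Mrps30 (-0.60 ± 0.21, limma adjusted p = 0.0446) fell, and the call of Mrps30 was lost in 5 of the 6 fits that left out 1 embryo, with adjusted p up to 0.202.

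The steps after the 4-cell stage had fewer calls. From the 8-cell stage to the IVF morula, Mrpl1 rose by 1.80 ± 0.34, Mrps9 by 1.75 ± 0.23 and Mrpl36 by 1.73 ± 0.49, and Mrps22 (-1.70 ± 0.32), Mrpl58 (-1.51 ± 0.40) and Mrpl4 (-1.25 ± 0.40) fell. Mrpl58 is a peptidyl-tRNA hydrolase that rescues stalled mitochondrial ribosomes and is also built into the large subunit. Without IVF 8-cell embryo 1 the count of this step was 8 genes, and without IVF 8-cell embryo 3 or IVF morula 3 it was 9. From the morula to the blastocyst Mrps16 (2.20), Mrpl42 (2.10 ± 0.35) and Mrps5 (2.05) rose, and Mrpl9 (-1.48 ± 0.26), Mrpl32 (-1.11 ± 0.29) and Mrps30 (-1.09 ± 0.21) fell. Mrps16 (limma adjusted p = 0.0567) and Mrps5 (0.166) were not called at this step after the second quantile normalization. Without IVF morula 3 the count was 11 genes and without IVF blastocyst 3 it was 12. Without IVF 4-cell embryo 2, the step to the 8-cell stage had 2 genes called in place of 0.

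In clones, too, most calls fell on the first 3 steps, and the medians of the 6 steps were 0.35, 0.33, 0.99, 0.15, 0.37 and 0.23. After the second quantile normalization 13 genes were higher and 2 lower at the first clone step (median 0.05), 19 and 24 at the second (median -0.27, a change of sign) and 44 and 3 at the third, and the later steps had 16 and 2, 19 and 2, and 8 and 14 (median -0.12, a change of sign). For these counts too, the shares of all genes called after that scaling are not given. Without that scaling, 27 genes were higher and 11 lower in clone 1-cell embryos than in MII oocytes (50.0%, where 24.2% of all genes were called, 12.0% higher and 12.2% lower), led by Mrps18b (4.68) and Mrpl58 (4.22), with Mrpl3 (-2.38 ± 0.38) and Mrpl22 (-2.24 ± 0.26) as the largest falls. At the next step 34 rose and 19 fell (69.7%, where 41.3% were called, 16.7% higher and 24.6% lower), with Mrpl43 (5.89) and Mrpl22 (5.17) in front and Mrpl24 (-4.02 ± 0.48) and Mrps25 (-3.95 ± 0.51) at the other end. The 2-cell to 4-cell step had 44 rises and 3 falls (61.8%, where 29.9% were called, 15.1% higher and 14.7% lower), among them Mrps31 (3.38) and Mrpl19 (3.36), and Mrps25 (-1.71 ± 0.51) and Mrpl3 (-1.30 ± 0.34) fell. With the mean of all probe sets of the gene, Mrpl3 was higher by 0.59 at that step.

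Later clone steps had 5 rises and 1 fall to the 8-cell stage (7.89%, where 6.50% of all genes were called, 2.33% higher and 4.17% lower), 16 and 1 to the morula (22.4%, where 17.4% were called, 9.81% higher and 7.61% lower), and 18 and 8 to the blastocyst (34.2%, where 34.5% were called, 16.9% higher and 17.6% lower). Named in them were Mrpl24 (1.80 ± 0.48), Mrpl23 (1.30 ± 0.37) and Mrpl38 (-0.90 ± 0.24) at the 8-cell stage, Mrpl55 (1.78), Mrpl17 (1.64) and Mrps6 (-1.11 ± 0.30) at the morula, and Mrpl42 (2.12), Mrps16 (2.06), Mrpl49 (-1.40 ± 0.27) and Mrps31 (-1.35 ± 0.35) at the blastocyst. The step to the 8-cell stage had 2 genes called without clone 4-cell embryo 5 and 3 without clone 8-cell embryo 3, and the step to the morula had 11 without clone 8-cell embryo 5. In clone 8-cell embryo 4 the Y-linked gene Eif2s3y read -5.25, beside -5.42 to -5.37 in MII oocytes and -2.70 to 1.23 in the other clones of that stage. A male donor nucleus carries this gene, so the label of that array was in doubt, and it was kept.

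Within the 8 embryos of a stage, clones differed from IVF embryos in 0 to 11 of the 76 genes. When all 51 arrays shared 1 estimate of the spread, the counts were 15, 22, 7, 17, 0 and 0 from the 1-cell stage to the blastocyst. The shares of all genes called in that fit are not given here, so these counts cannot be set beside them. In the fits by stage, 24 genes were called at 1 stage or more and 52 at none, which does not show that the others were alike. The share of all genes called at 1 stage or more is not given here, so the 24 cannot be set beside it. The blastocyst had the most calls, 1 higher and 10 lower in clones (14.5%, where 6.18% of all genes were called, 2.84% higher and 3.34% lower), and the morula had 0 by limma (where 0.165% were called, 0.0770% higher and 0.0879% lower). At the morula an unadjusted p under 0.05 was found for 1820 of all 18193 genes and for 13 of the 76. Clones and IVF embryos also differed in array quality at several stages. The mean of the hybridisation controls, in log2 units, lay between 0.57 and 1.22 in 2-cell clones against -0.73 to -0.23 in 2-cell IVF embryos, between 0.69 and 1.19 in 4-cell clones against -0.51 to -0.13 in 4-cell IVF embryos, and between -0.03 and 0.96 in 8-cell clones against -0.44 to -0.24 in 8-cell IVF embryos. Markers of Sertoli cells, the donors, averaged over their 9 genes, stood without overlap at 2 stages, the 1-cell stage (-0.27 to -0.01 in clones, against -0.35 to -0.28 in IVF embryos) and the morula (0.07 to 0.62 in clones, against -0.31 to -0.24 in IVF embryos). They overlapped at the 4 others, with -0.41 to 0.13 in clone blastocysts, against -0.45 to -0.29 in IVF blastocysts, and their part in the differences was not tested. The 7 cumulus cell markers averaged -0.15 to 0.40 in clones, against -0.15 to 0.13 in IVF embryos and 0.08 to 0.71 in MII oocytes. With the hybridisation control as a covariate, 0 genes of the 76 were called at the 2-cell and 4-cell stages and 1 at the 8-cell stage, and quality and embryo kind cannot be told apart where their ranges do not overlap.

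**Figure D4:**
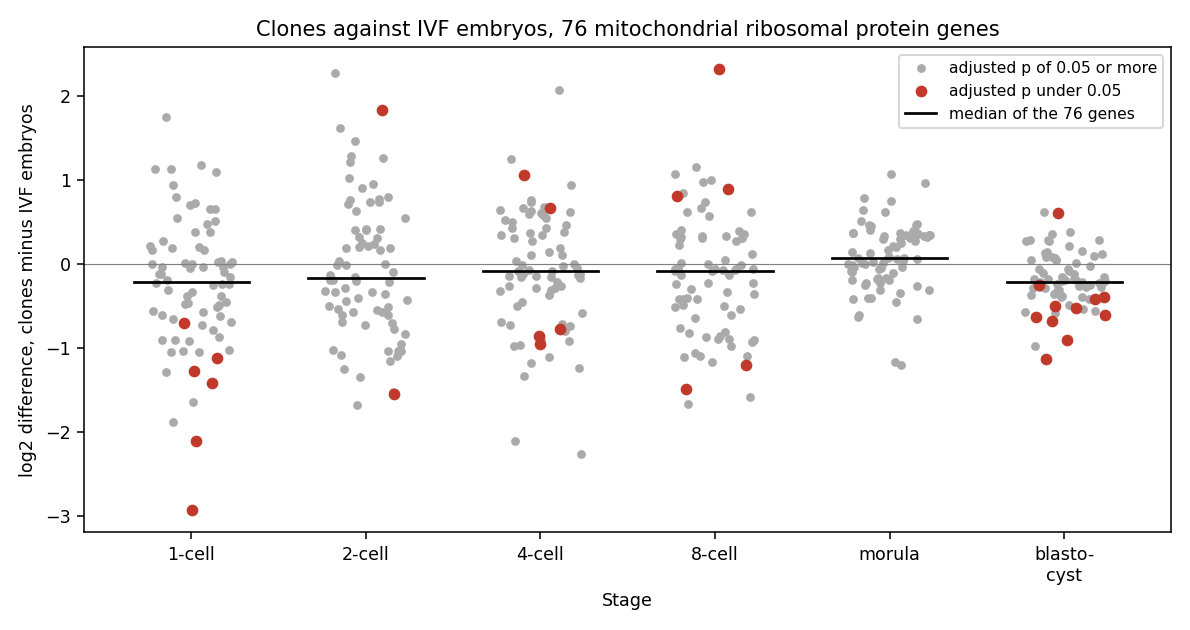
Log2 difference of clones from IVF embryos (vertical axis) for each of the 76 genes, by stage (horizontal axis). Genes past the adjusted p of 0.05 are coloured and lines mark the medians, which lie between -0.21 and 0.07.

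At the 1-cell stage 0 of the genes were higher and 6 lower in clones (7.89%, where 6.31% of all genes were called, 3.52% higher and 2.79% lower). Mrpl1 read -2.07, -3.97, -2.79, -1.62 and -2.38 in the clones, against -0.15, 1.03 and 0.20 in the IVF embryos. The groups were apart, with a difference of -2.93 ± 0.56 (limma adjusted p = 0.0323), and the other probe sets of Mrpl1 differed by 0.11 and -0.01. Its call was lost in 6 of the 8 fits that left out 1 embryo (limma adjusted p up to 0.112). Mrpl17 read -3.68, -2.89, -2.52, -2.91 and -3.72 in the clones, against -1.29, -0.89 and -0.94 in the IVF embryos, again without overlap (-2.10 ± 0.31, limma adjusted p = 0.0144), and the call was lost in 2 of those 8 fits (up to 0.0595). Mrpl48 read 1.65, 1.87, 1.81, 1.68 and 1.57 in the clones, against 2.94, 3.30 and 2.72 in the IVF embryos (-1.27 ± 0.14, limma adjusted p = 0.00591). It kept its call without each embryo in turn (limma adjusted p up to 0.0229), but not with all 51 arrays in 1 fit (0.112) or without clones 1 to 3 (0.0872). With the mean of all probe sets of a gene, Mrpl1 (0.102) and Mrpl17 (0.121) did not pass the threshold.

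Mrpl32 (-1.42 ± 0.24), Mrps33 (-1.12 ± 0.23) and Mrpl16 (-0.70 ± 0.15) were the other genes lower in 1-cell clones. Mrps33 is specific to mitochondria, and Mrpl16 has a bacterial counterpart near the peptidyl transferase centre. Clones 1 to 3 of this stage had hybridisation controls from -1.02 to -0.71 and clones 4 and 5 had 0.35 and 0.50, beside 0.53 to 0.79 in the IVF embryos. Without clones 1 to 3 the stage had 1 gene called, which was higher, and without clones 4 and 5 it had 5. Without IVF 1-cell embryo 1 it had 2 and without IVF 1-cell embryo 2 it had 1.

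The 2-cell stage had 1 gene higher and 1 lower in clones (2.63%, where 2.37% of all genes were called, 0.511% higher and 1.86% lower). Mrpl22, which lines the exit tunnel, read -0.04, -0.27, 0.25, -0.24 and -0.19 in the clones, against -2.01, -2.48 and -1.27 in the IVF embryos, so every clone was higher (1.83 ± 0.27, limma adjusted p = 0.0276). Mrpl58 read -2.79, -2.39, -2.55, -3.17 and -2.86 in the clones, against -1.48, -1.59 and -0.58 in the IVF embryos, and every clone was lower (-1.54 ± 0.28, limma adjusted p = 0.0479). With arrays centred on their median, or after the second quantile normalization, Mrpl58 was not called (limma adjusted p of 0.051 and 0.0553), which left 1 gene higher and 0 lower. Leaving out any 1 of the 8 embryos left 0 or 1 of these calls.

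Mrpl58 was also lower in clones at the 4-cell and 8-cell stages, the only gene of the 76 called at 3 stages. At the 4-cell stage it read 0.00, 0.38, -0.05, -0.24 and -0.22 in the clones, against 0.85, 0.76 and 0.87 in the IVF embryos (-0.85 ± 0.14). At the 8-cell stage it read 0.54, -0.59, 0.32, 0.01 and 0.10 in the clones, against 1.28, 1.31 and 1.23 in the IVF embryos (-1.20 ± 0.24). No clone reached the IVF embryos at either stage, although the call was lost in 7 and 6 of the 8 fits that left out 1 embryo, with adjusted p up to 0.115 and 0.119. In morulae Mrpl58 differed by 0.40 and in blastocysts by -0.20, and neither passed the threshold. Its second probe set differed by 0.01, 0.13 and 0.14 at the 2-cell, 4-cell and 8-cell stages, and with the mean of both it passed the threshold at none of the 3 stages (limma adjusted p of 0.0504, 0.3 and 0.105).

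The 4-cell stage had 2 of the 76 above and 3 below the IVF embryos (6.58%, where 2.26% of all genes were called, 0.462% higher and 1.80% lower). Mrpl21 (1.06 ± 0.16) and Mrps26 (0.66 ± 0.12) were higher, and Mrpl37 (-0.95 ± 0.14) and Mrpl12 (-0.77 ± 0.11) were lower beside Mrpl58. Mrpl12 read 0.12, -0.24, 0.05, 0.23 and 0.05 in the clones, against 0.69, 0.88 and 0.87 in the IVF embryos, which did not overlap. Mrpl21 (limma adjusted p = 0.22) and Mrps26 (0.356) were not called with the mean of all probe sets. After the second quantile normalization 3 genes were higher and 0 lower. With arrays centred on their median 1 was higher and 3 lower. Without 1 embryo the stage had 1 to 6 genes called, with 2 without IVF embryo 1 or 3, 1 without IVF embryo 2 or clone 1 or 3, and 3 without clone 2.

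The 8-cell stage had 3 genes higher and 2 lower in clones (6.58%, where 6.62% of all genes were called, 2.15% higher and 4.47% lower). Mrps6, with a bacterial counterpart, read 0.99, 1.65, 1.27, 1.50 and 0.64 in the clones, against -1.57, -0.31 and -1.42 in the IVF embryos. Every clone was higher (2.31 ± 0.36, limma adjusted p = 0.0198), and the second probe set of Mrps6 was higher by 1.89. Mrpl33 (0.89 ± 0.20) and Mrpl1 (0.81 ± 0.18) were higher and Mrpl38 (-1.49 ± 0.29) lower, at adjusted p of 0.0493, 0.0489 and 0.0362 by limma. None of the 4 was called with the mean of all probe sets, at limma adjusted p of 0.0544 for Mrps6, 0.0834 for Mrpl33, 0.0743 for Mrpl1 and 0.106 for Mrpl38. After the second quantile normalization 6 genes were higher and 0 lower, and with arrays centred on their median 1 was higher and 2 lower. Without 1 embryo the stage had between 0 genes (without IVF embryo 1) and 3 (without clone 1, 2, 4 or 5), with 1 without IVF embryo 2 or 3 and 2 without clone 3.

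In blastocysts the differences were small and mostly downward. Clones were lower in 54 of the 76 genes, where 59.6% of all genes were lower. The median difference was -0.21 beside -0.01 for all genes, and only 1 of the 11 calls reached 2-fold. The median of the small-subunit genes ran from 2.33 to 2.60 above MII in the clones, against 2.86 to 2.95 in the IVF embryos, and that of the large-subunit genes from 3.51 to 3.89 in the clones, against 3.95 to 4.01 in the IVF embryos. The log2 difference between 3′ and 5′ control probe sets ran from -1.52 to -0.72 in these clones, against -2.36 to -1.63 in the IVF embryos, and the mean of the 4 inner cell mass markers from 1.92 to 2.43 in the clones, against 2.51 to 2.68 in the IVF embryos. The part of either in the shift was not tested. Mrps9, with a bacterial counterpart, read 0.85, 0.88, 0.77, 0.77 and 0.89 in the clones, against 1.43, 1.47 and 1.62 in the IVF embryos. All clones were lower (-0.67 ± 0.05, limma adjusted p = 0.00334). Mrps35, a mitochondria-specific small-subunit protein, read 2.01, 1.71, 1.79, 1.98 and 1.98 in the clones, against 2.60, 2.46 and 2.53 in the IVF embryos, again without overlap (-0.63 ± 0.08, limma adjusted p = 0.0122). Both genes and Mrpl12 kept their calls without each embryo in turn, but the call of Mrps9 was lost with the mean of its probe sets (limma adjusted p = 0.0634).

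Mrpl35 (-1.13 ± 0.23), Mrps11 (-0.91 ± 0.14), Mrpl21 (-0.60 ± 0.11), Mrps18a (-0.52 ± 0.10), Mrpl15 (-0.50 ± 0.10), Mrpl49 (-0.42 ± 0.06), Mrpl12 (-0.39 ± 0.04) and Mrpl13 (-0.25 ± 0.05) were the other genes lower in clone blastocysts. The difference of Mrpl35 rested on 1 of its probe sets, since the others differed by -0.03 and -0.05, and that of Mrpl21 was 0.02 with the mean of its probe sets. Mrps30 was the only gene of the 76 higher in clone blastocysts. It read -0.12, -0.13, -0.09, 0.00 and -0.13 in the clones, against -0.72, -0.74 and -0.65 in the IVF embryos, without overlap (0.61 ± 0.04, limma adjusted p = 0.00181). Without 1 embryo the stage had 5 to 11 genes called, with 5 without IVF embryo 1, 6 without IVF embryo 2 or 3 and 7 without clone 2 or 4.

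Whether a step itself differed between clones and IVF embryos was tested as the clone step minus the IVF step. A larger or smaller clone step means a difference above or below 0, whether it came from the clone or the IVF step. From the 1-cell to the 2-cell stage 12 genes had a larger and 7 a smaller clone step (25.0%, where 11.2% of all genes were called, 3.96% larger and 7.24% smaller). Mrpl1 had the largest excess (3.34 ± 0.46, limma adjusted p = 1.84e-06), and its clones already stood below the IVF embryos at the 1-cell stage. Mrpl22 (2.72 ± 0.36) and Mrps18a (2.50 ± 0.47) followed, and Mrpl44 (-1.90 ± 0.48) and Mrpl38 (-1.83 ± 0.41) had the most negative differences of those called. Mrpl44 carries a fold of the RNase III family. Without 1-cell clones 1 to 3, the limma adjusted p of Mrpl44 was 0.078. Neither Mrpl44 (limma adjusted p = 1) nor Mrpl1 (0.115) passed the threshold with the mean of all probe sets of a gene.

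From the 2-cell to the 4-cell stage only Mrpl22 differed (-1.56 ± 0.36, 1.32%, where 2.64% of all genes were called, 1.45% larger and 1.19% smaller), and the count was 0 without IVF 2-cell embryo 2. Leaving out other embryos gave up to 5 genes (without IVF 2-cell embryo 3), with 4 without clone 2-cell embryo 4, 3 without IVF 2-cell embryo 1 or clone 4-cell embryo 5, and 2 without IVF 4-cell embryo 3, clone 2-cell embryo 2 or 5 or clone 4-cell embryo 2. No gene of the 76 was called from the 4-cell to the 8-cell stage (limma, where 1.31% were called, 0.286% larger and 1.03% smaller). An unadjusted p under 0.05 was found for 2079 of all 18193 genes and for 5 of the 76. From the 8-cell stage to the morula 7 had a larger and 1 a smaller clone step (10.5%, where 5.66% were called, 4.28% larger and 1.38% smaller), among them Mrps22 (2.05 ± 0.62), Mrpl38 (1.89 ± 0.41) and Mrps6 (-2.63 ± 0.61). Mrpl38 was not called with the mean of its probe sets (limma adjusted p = 0.0828). That count was 4 without IVF 8-cell embryo 2 or IVF morula 3, 3 without clone 8-cell embryo 5, and 5 without IVF 8-cell embryo 1 or 3, IVF morula 1 or 2 or clone morula 2 or 4. At the last step Mrps11 alone differed (-1.97 ± 0.47, 1.32%, where 1.62% of all genes were called, 0.984% larger and 0.638% smaller), and the count was 0 without IVF morula 2 or 3.

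Other genes of mitochondrial translation were followed as lists. Of 16 mitochondrial aminoacyl-tRNA synthetases, which charge the organelle's transfer RNAs, 12 were higher and 1 lower in IVF blastocysts than in MII oocytes (median 2.33), and 13 were higher and 1 lower in clone blastocysts (median 1.90). Of 12 initiation, elongation, release and insertion factors, 9 were higher and 1 lower in IVF blastocysts (median 2.24), and 5 were higher and 2 lower in clone blastocysts (median 1.13). Of 26 factors of ribosome assembly and ribosomal RNA modification, 15 were higher and 5 lower in IVF blastocysts (median 1.13) and 15 and 4 in clone blastocysts (median 1.23). Of 17 genes of mitochondrial DNA replication, transcription and RNA maturation, 10 were higher and 5 lower in IVF blastocysts (median 2.61) and 10 and 4 in clone blastocysts (median 2.13). These shares lie beside 25.9% of all genes higher in IVF blastocysts and 26.5% in clone blastocysts.

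Most genes of the respiratory chain and of the cytosolic ribosome also rose. Of 77 nuclear-encoded respiratory chain and ATP synthase genes 69 were higher and 2 lower in IVF blastocysts (median 4.85), and of 43 cytosolic ribosomal protein genes 38 were higher and 1 lower (median 6.50). In clone blastocysts the counts were 69 and 4 (median 4.44) and 40 and 2 (median 6.20). In clones against IVF embryos at the blastocyst stage, 2 respiratory chain genes were higher and 20 lower (median -0.26), and 0 cytosolic ribosomal protein genes were higher and 15 lower (median -0.23), where 2.84% of all genes were higher and 3.34% lower. Of the 9 regulators of mitochondrial biogenesis, 1, 1, 0, 1, 0 and 2 were lower in clones from the 1-cell stage to the blastocyst. At no stage were any called higher, but the shares of all genes called higher, given above by stage, were also low. With 9 genes, these counts do not set the regulators apart. Nrf1 was lower in 1-cell clones (-1.16 ± 0.22), Gabpb1, the partner of GABPA, in 2-cell clones (-1.89 ± 0.31), and Myc in 8-cell clones (-2.83 ± 0.35). In clone blastocysts Gabpa, which binds the ETS core above (-0.78 ± 0.11), and the nuclear receptor Esrra (-0.42 ± 0.09) were lower.

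Several genes of these lists differed between clones and IVF embryos. In 1-cell clones Tfb1m, the methyltransferase that dimethylates small-subunit ribosomal RNA, was lower by a log2 difference of -2.92 ± 0.25, the initiation factor gene Mtif3 by -1.31 ± 0.16 and the helicase gene Twnk by -1.74 ± 0.26. The elongation factor gene Tsfm (1.35 ± 0.22) and the pseudouridine synthase gene Rpusd4 (2.31 ± 0.40) were higher. In 8-cell clones the leucyl-tRNA synthetase gene Lars2 was higher by 3.29 ± 0.37, and Polg, the mitochondrial DNA polymerase (-3.17 ± 0.43), Grsf1, a protein of mitochondrial RNA granules (-2.28 ± 0.22), and Fastkd2 (-1.49 ± 0.16) were lower. In clone blastocysts Gfm1, an elongation factor (-1.90 ± 0.30), Oxa1l, which inserts the new proteins into the inner membrane (-1.63 ± 0.23), and Hsd17b10, a subunit of mitochondrial RNase P (-2.32 ± 0.33), were lower, each with a limma adjusted p between 0.0143 and 0.0188. Of the 4 mitochondrial ribosomal proteins under other symbols, Ptcd3 was lower (-0.58 ± 0.09) and Dap3 higher (0.30 ± 0.06) in clone blastocysts.

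Genes with and without a promoter motif both rose. The 25 genes with an ETS core had a median difference of 3.20 between IVF blastocysts and MII oocytes, with 23 higher and 1 lower, and the 42 without it had 3.11, with 31 higher and 5 lower. In clones the medians were 3.08 and 2.63. The 8 genes with an NRF1 core had a median of 2.93 in IVF embryos, and the 59 without it had 3.11. The 12 genes with a YY1 core had 2.88 and the 55 without it 3.72. These are descriptions without a test.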

How the data were processed

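Single oocytes and embryos were measured on 51 Affymetrix arrays, 1 for each, after RNA amplification over repeated rounds, per the labels' protocols. The authors deposited 1 table of log2 values for 45101 probe sets, made with RMA per the submitters' processing notes, which give no version. The base is not stated and was read from the values, since 1 probe set spanned 13.8 units, more than the 11.1 units of a 16-bit scanner in natural logarithms. In 94.3% of probe sets exactly 1 array lay at 0, so each had been centred over the arrays, and a value carries no absolute level. Arrays have no read depth, and the number of embryos limits precision.

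Of 34945 probe sets with 1 gene symbol, the one with the largest SD stood for each of 18193 genes. The linear models and moderated tests of limma 3.58.1 (R 4.3.3) compared the groups, using Benjamini-Hochberg adjustment over all genes at 0.05. Clones were compared with IVF embryos within the 8 arrays of a stage, IVF steps within the 21 MII and IVF arrays, clone steps within the 30 clone arrays, and differences of steps and clones against MII within all 51. The scripts were tested on simulated data. Same-numbered clones and IVF embryos were not pairs: their deviations correlated between -0.204 and 0.102 over 18 pairs. No 2 arrays were identical.

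Genes named per comparison were the largest rises and falls past the threshold, up to 5 each for clones against IVF embryos (groups not overlapping) and for blastocysts, 3 for IVF steps, and 2 for clone steps and for differences of steps. Mrpl12 and the Mrps18 genes were followed throughout, and each list gave up to 2 genes per stage. Mrps36, Mrpl13, Mrpl49, Mrpl15 and Mrpl16, where named beyond this, the 1-cell and 2-cell steps of Mrpl1, and values of a named gene in other comparisons were added after their values were seen. The genes, lists and comparisons were chosen with earlier results of these data known. Alternatives were another probe set rule, another scaling, a filter, a replicate block, a quality covariate and leaving out embryos.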

Additional observations from a re-analysis of the deposited data

Results flagged for a closer look

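Of 46 sets of clone values of named genes looked at for an embryo far from its group, 2 had one. Chance marks about 1 in 20 such sets. Mrps30 in clone blastocyst 4 read 0.00, beside -0.13 to -0.09 in the other clones. Mrpl35 in clone blastocyst 1 read 0.71, beside -0.19 to -0.02 in the others. The median of the 76 genes above MII was 2.15 in clone 4-cell embryo 5, beside 2.78 to 2.95 in the other 4-cell clones.

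The step of several genes differed between clones and IVF embryos by an interaction term in limma. Apart from Mrps18a, which was followed throughout, they were named for passing the threshold of that test, so this list repeats the selection. From the 1-cell to the 2-cell stage the clone step minus the IVF step was 3.34 for Mrpl1, 2.72 for Mrpl22 and 2.50 for Mrps18a, and -1.90 for Mrpl44 and -1.83 for Mrpl38. From the 2-cell to the 4-cell stage it was -1.56 for Mrpl22. From the 8-cell stage to the morula it was 2.05 for Mrps22, 1.89 for Mrpl38 and -2.63 for Mrps6. From the morula to the blastocyst it was -1.97 for Mrps11.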

How the results depend on the processing

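The median rise from MII oocyte to blastocyst kept its direction under every alternative run, with 58 to 69 genes called in IVF embryos and 55 to 66 in clones, whereas the counts of clones against IVF embryos moved more. Counts below are of the 76 genes, and the shares of all genes called under these alternatives are not given. With the mean of all probe sets, clones against IVF embryos had 1 call at the 2-cell, 3 at the 4-cell, 1 at the 8-cell and 7 at the blastocyst stage, and the differences of steps had 2 (2-cell to 4-cell) and 1 (4-cell to 8-cell). Medians were then 0.23, 0.75, 0.19 and 0.40 for the IVF steps to the 2-cell embryo, 4-cell embryo, morula and blastocyst, 0.16 and 0.79 for the clone steps to the 1-cell and 4-cell embryo, and 2.62 and 2.42 for IVF and clone blastocysts against MII. Mrpl21 in clone against IVF blastocysts then stood at 0.02 and the Mrpl3 clone step to the 4-cell stage at 0.59, both reversed. With arrays centred on their median, the 2-cell stage had 1 call, the 8-cell stage 3, and the last IVF step a median of 0.55.

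A second quantile normalization, which by construction gives every array the same spread of centred values, left 1 call at the 2-cell and 3 at the 4-cell stage (median 0.06), 24, 1 and 33 calls for the IVF steps to the 1-cell, 8-cell and morula stages, and 15 and 18 for the clone steps to the 1-cell and 8-cell stages. Medians of the IVF steps to the 1-cell and 2-cell embryo, morula and blastocyst were 0.18, -0.32, 0.50 and 0.19, those of the clone steps to the 1-cell and 2-cell embryo and blastocyst 0.05, -0.27 and -0.12, and those of IVF and clone blastocysts against MII 2.29 and 2.00. The step to the 2-cell stage thus changed sign in both kinds, and the IVF step of Mrps18c to it was -0.06. Without the 30% of genes of lowest SD, calls were 10 at the 1-cell and 4 at the 2-cell stage, 10 for the clone step to the 8-cell stage and 3 for the difference of steps to the 4-cell stage, where fewer genes were tested.

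The replicate block left 0 calls between clones and IVF embryos at the 1-cell, 2-cell, 4-cell, 8-cell and blastocyst stages and 2 for the difference of steps to the 4-cell stage. The hybridisation control as a covariate left 2, 0, 0, 1 and 3 calls at the 1-cell, 2-cell, 4-cell, 8-cell and blastocyst stages. With all 51 arrays in 1 fit, calls were 15, 22, 17 and 0 at the 1-cell, 2-cell, 8-cell and blastocyst stages, and with 1-cell clones 1 to 3 left out, a choice made after seeing the data, 1 at the 1-cell stage. The cause of these shifts was not tested.

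Leaving out 1 embryo at a time, calls of clones against IVF embryos ran from 1 to 5, 0 to 1, 1 to 6, 0 to 3, 0 to 1 and 5 to 11 from the 1-cell stage to the blastocyst. IVF steps ran from 41 to 44, 46 to 49, 36 to 45, 0 to 2, 8 to 11 and 11 to 19, clone steps from 35 to 39, 51 to 54, 42 to 50, 2 to 7, 11 to 20 and 19 to 24, and blastocysts against MII from 65 to 68 (IVF) and 63 to 65 (clones). Differences of steps ran from 15 to 22, 0 to 5, 0 to 0, 3 to 8 and 0 to 1.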
